A study of Nicotiana tabacum with 36 samples.

Results

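The comparison described here asked whether leaf transcripts of a pair of tobacco cultivars changed differently over 8 h at 4 °C. For each gene, the change between 0 h and 8 h in Taiyan8 (TT, cold susceptible) was subtracted from the change over the same hours in Yanyan97 (YT, cold resistant), and this difference of responses is called the interaction. It is given on the log2 scale: a positive value means that the response was higher in YT, and a negative value that it was lower in YT. All genes were eligible, and 23740 of the 35519 genes in the count table had enough reads to be tested. The series holds 36 RNA-seq libraries of poly(A) RNA, and the interaction rests on 12 of them, 3 in each of TT 0h, TT 8h, YT 0h and YT 8h.

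All 4 groups were leaves of seedlings that had grown under 16 h of light and 8 h of dark. The 0 h groups were taken before the cold and the 8 h groups after 8 h at 4 °C, and no transgene or chemical was used in any of them. The study calls the triplicates biological but gives no detail of how plants were pooled, and each response to cold rests on 1 cultivar. Plants kept at the growth temperature for 8 h were not analysed here, so in each cultivar the cold and the hour of the day cannot be told apart. The leaf identity of the samples could not be checked, because the gene IDs carry no names for leaf marker genes. The 12 libraries held between 22239372 and 26691552 counts on genes. The library of YT 8h replicate 2 stood farthest from its group: the root mean square log2 difference from the mean of its partners was 0.902, against 0.528 to 0.701 in the other 11 libraries.

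Plant cells sense cold at the membrane, where calcium influx and protein kinases relay the signal to transcription factors. Best known among these in Arabidopsis are the CBF (C-repeat binding factor) proteins of the AP2-EREBP family, which switch on genes for cold acclimation. Many receptor-like kinases sit in the plasma membrane, read signals from the cell wall, from pathogens or from neighbouring cells, and often act together with WRKY transcription factors. Tobacco is an allotetraploid with a pair of related copies for many genes, and reads that match both copies equally were not counted. Counting ignored strand, so reads of overlapping genes on opposite strands cannot be told apart.

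At 8 h, 1079 of the 23740 genes (4.55%) passed the test for the interaction, with a log2 value above 1 in size and an adjusted p under 0.05 in edgeR's quasi-likelihood test. The response was higher in YT for 517 genes (2.18%) and lower in YT for 562 (2.37%). Within the cultivars, 5024 genes (21.2%) were called between 0 h and 8 h in TT, 12.4% of all genes up and 8.79% down, and 4098 (17.3%) in YT, 9.94% up and 7.33% down. Across all genes tested, the interaction had a median of -0.02 and its middle 90% lay between -1.77 and 1.46. The 12 libraries carried unequal weight. The 1079 genes numbered 540 (277 positive, 263 negative) when TT 0h replicate 1 was left out, 684 (324 and 360) when TT 0h replicate 2 was, 562 (295 and 267) when YT 0h replicate 3 was and 577 (257 and 320) when YT 8h replicate 2 was. The count of positive calls was 786 without YT 8h replicate 1, and that of negative calls 879 without TT 0h replicate 3. Fitted to only the 12 libraries compared, the interaction called 551 genes (293 positive and 258 negative) and kept 48.7% of the 1079. In all 12 fits that left out 1 library, 354 genes kept their call, 176 of them positive and 178 negative. In log2(TPM + 1), tested with limma, the whole distribution lay lower: the median of all genes was -0.27, and 87.9% of 1358 calls were negative, against 52.1% here. Counted from that median, 238 calls were positive and 692 negative, and 1074 of the 1079 genes lay on the same side of it.

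**Figure D1:**
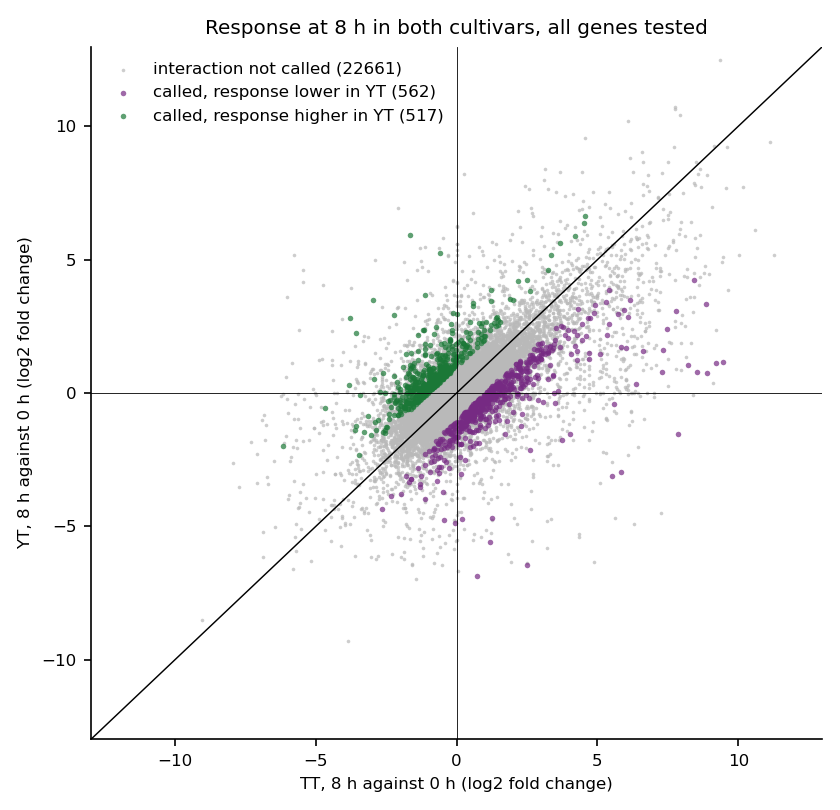
Each point is 1 of the 23740 genes, with its log2 fold change at 8 h against 0 h in TT on the x axis and in YT on the y axis. The line marks equal responses. The 562 purple genes below it had a lower response in YT and the 517 green genes above it a higher one, and most lie near an axis, where only 1 cultivar moved.

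Sorted by their own response, the called genes were mostly genes that moved in TT. Of the 1079, 402 (37.3%) were called between 0 h and 8 h in TT and not in YT, and 233 (21.6%) in YT and not in TT. Of the TT genes, 206 rose in TT by a median of 1.73 on the log2 scale, beside a median of 0.16 in YT, and 196 had a median of -1.51 in TT beside 0.03 in YT. Among the YT genes, 109 rose by a median of 1.72 in YT, beside -0.08 in TT, and 124 had a median of -1.68 in YT beside -0.06 in TT. A further 136 genes moved the same way in both cultivars. The larger of the paired responses was that of TT for 99 of them and that of YT for 37. For 290 genes neither response passed on its own, and 18 genes moved in opposite directions. These classes use the libraries that gave the interaction, so they describe it and do not test it.

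The sizes of the classes depended on single libraries. The 206 genes that rose in TT only became 101 without TT 0h replicate 1, 127 without TT 0h replicate 2, 109 without YT 0h replicate 3, 130 without YT 8h replicate 2 and 364 without TT 0h replicate 3. The 196 genes that fell in TT only were 111 without TT 0h replicate 1, 114 without YT 0h replicate 3, 110 without YT 8h replicate 2 and 297 without TT 0h replicate 3. The 109 that rose in YT only were 62 without TT 0h replicate 1, 71 and 63 without YT 0h replicates 1 and 3, 177 without YT 8h replicate 1 and 56 without YT 8h replicate 2. The 124 that fell in YT only were 55 and 78 without TT 0h replicates 1 and 2, 76 without TT 8h replicate 2, 61 without YT 0h replicate 3, 210 without YT 8h replicate 1 and 67 without YT 8h replicate 2.

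**Figure D2:**
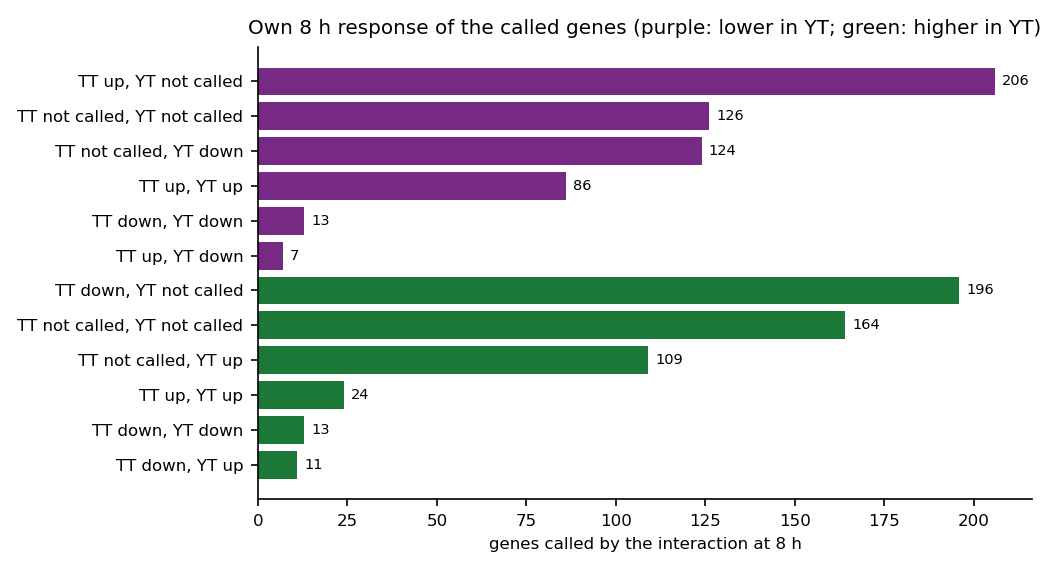
Bars give the number of genes called by the interaction, sorted by whether the gene was called up, called down or not called at 8 h against 0 h in each cultivar. The longest bars of both colours are genes that moved in TT alone, 206 with a lower and 196 with a higher response in YT.

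The called genes were also sorted by whether the cultivars differed by the test at 0 h, at 8 h, at both times or at neither. The interaction equals the cultivar difference at 8 h minus that at 0 h. A called gene that passed at neither time thus still had a difference, which missed the limits. Of the 1079 genes, 289 (26.8%) differed between the cultivars at 0 h and not at 8 h, 208 (19.3%) at 8 h and not at 0 h, 38 (3.52%) at both times, and 544 (50.4%) passed at neither. Over all genes tested, 1445 (6.09%) differed at 0 h, 3.48% with YT and 2.60% with TT higher, and 926 (3.90%) at 8 h, 1.98% with YT and 1.92% with TT higher. Among the genes that differed at 0 h or 8 h, the largest class was of 180 genes with a lower response in YT that were higher in YT at 0 h and not called at 8 h. Their median difference, YT minus TT, was 1.37 on the log2 scale at 0 h and -0.34 at 8 h. The mirror class of 109 genes that were higher in TT at 0 h only went from a median of -1.31 to 0.21. Another 100 genes were higher in TT at 8 h only, with a median of -1.40 there, and 108 were higher in YT at 8 h only, with a median of 1.40.

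The contrasts that set these classes compare only libraries at 0 h and 8 h, but the libraries at 0.5, 1, 2 and 4 h shared the fit and so the filter and the estimate of spread behind each call. Fitted to only the 12 libraries, the classes of 180, 109 and 100 genes held 90, 67 and 53. The differences at 0.5 to 4 h are therefore a description and not an independent test. Over all genes, 4.52%, 5.24%, 4.89% and 6.74% differed between the cultivars at these times. The 180 genes that were higher in YT at 0 h had medians of 0.17, 0.60, 0.17 and 0.30 at these times, and the 109 that were higher in TT had medians of -0.41, -0.62, -0.39 and -0.45. At 0.5 h, 20 of the 180 (11.1%) were still called higher in YT, against 1.83% of all genes, and 16 of the 109 (14.7%) higher in TT, against 2.68%. At 1 h the shares were 18.3% (2.45% of all genes) and 22.9% (2.79%), and at 2 h 7.22% (2.67%) and 15.6% (2.22%). Both gaps were smaller at 0.5 h than at 0 h, and most of their genes no longer passed. A class chosen for a large gap in some libraries will show a smaller one in others, and the part of this in the fall was not tested. For the class higher in YT, the median at 0.5 h was between 0.08 and 0.38 and that at 4 h between 0.07 and 0.66 when the genes were called without 1 library (lowest without TT 0h replicate 1 and TT 0h replicate 3, highest without YT 0h replicate 3 and YT 8h replicate 2). That class held 68 genes without YT 0h replicate 3, 83 and 119 without TT 0h replicates 1 and 2, and 391 without TT 0h replicate 3. The class of 109 held 52, 55 and 180 without TT 0h replicates 1, 2 and 3, 67 and 70 without TT 8h replicates 2 and 3, 51 without YT 0h replicate 3 and 50 without YT 8h replicate 2.

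The classes that parted at 8 h showed a smaller gap earlier. The 100 genes higher in TT at 8 h had medians of -0.22, -0.17, -0.41 and -0.52 at 0.5, 1, 2 and 4 h, and 17 of them (17%) were called higher in TT at 4 h, against 2.57% of all genes. The 108 genes higher in YT at 8 h had medians of -0.19, 0.00, 0.24 and 0.21, and 13 of them (12%) were called higher in YT at 4 h, against 4.17% of all genes. In both classes the step from 4 h to 8 h was larger than any step before it, but 8 h is also the time that chose them. The first class held 54 genes without TT 0h replicate 1 and 64 without YT 0h replicate 3, and the second 68 without TT 8h replicate 2.

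**Figure D3:**
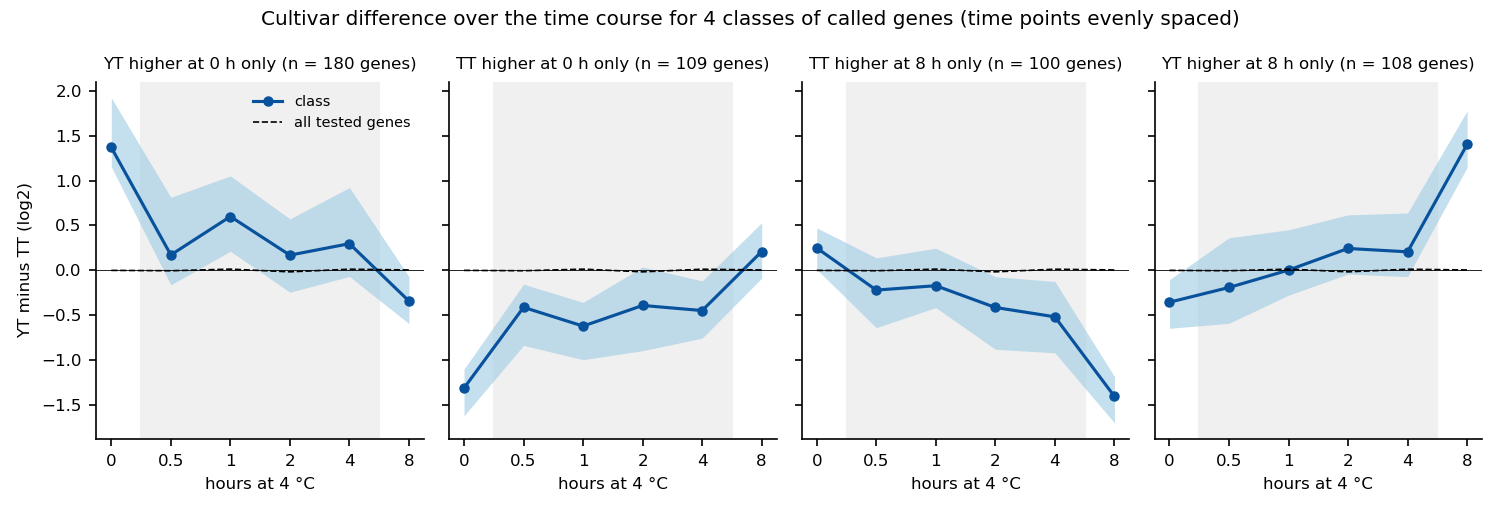
Median difference between the cultivars, YT minus TT on the log2 scale, against hours at 4 °C, with the middle 50% of genes as a band and all 23740 genes as a dashed line. The grey area marks time points outside the contrasts that set the classes, whose libraries shared the same fit. The classes set by 0 h (180 and 109 genes) lie nearer to 0 from 0.5 h on, and those set by 8 h (100 and 108 genes) part mainly between 4 h and 8 h.

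Genes with the largest interactions are given with their level in CPM (counts scaled to a common library size) in each library. Those with no family given below have no name in the sources used here. Among genes averaging 5 CPM or more, the largest positive value was that of Nitab4.5_0000010g0250 (chromosome 13, 64896363 to 64898460). It measured 2.57, 4.78 and 12.02 CPM in TT 0h, 0.528, 0.721 and 1.22 in TT 8h, 2.82, 0.669 and 0.528 in YT 0h, and 13.7, 29.1 and 2.23 in YT 8h. At 0.5, 1, 2 and 4 h the level in YT was above that in TT by 4.56, 3.51, 2.03 and 4.2 on the log2 scale. It fell in TT and rose in YT at 8 h, with an interaction of 6.44 ± 1.41 (SE, adjusted p = 0.00634), although 1 library of YT 8h lay below the highest of YT 0h. Nitab4.5_0000680g0150 (chromosome 2, 1511167 to 1511682) fell in both cultivars, from 22.2, 38.1 and 35.3 CPM to 0.264, 0.127 and 0.928 in TT and from 110.3, 116.5 and 148.1 to 50.6, 19.1 and 24.7 in YT. The fall was steeper in TT by 4.17 ± 0.69 on the log2 scale (adjusted p = 0.000736). This gene was higher in YT in every library at 0 h and at 8 h.

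Some of these genes had a similar level at 0 h and at 8 h in 1 cultivar. Nitab4.5_0000394g0080 (chromosome 4, 93029934 to 93030493) went from 63.6, 70.1 and 61.1 CPM to 4.09, 3.14 and 10.7 in TT, while YT measured 21.2, 26.5 and 20.3 before the cold and 19.2, 22.8 and 22.9 at 8 h. Its interaction was 3.37 ± 0.41 (adjusted p = 2.91e-05), and the cultivars changed places. Nitab4.5_0001700g0060 (chromosome 24, 40474256 to 40476622) did the opposite: it measured 82.7, 72.7 and 60.7 CPM in TT 0h and 51.4, 55.0 and 111.8 in TT 8h, but went from 28.2, 39.4 and 31.5 to 245.7, 263.2 and 267.0 in YT. The 3 libraries of YT 8h lay above all others, and the interaction was 2.95 ± 0.36 (adjusted p = 2.91e-05). Its cultivar difference lay between -0.46 and 0.19 at 0.5, 1, 2 and 4 h, so that the gap of 1.83 opened at 8 h.

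The same shape was seen at lower levels in Nitab4.5_0000034g0150 (chromosome 12, 37950546 to 37951610), which went from 9.50, 11.97 and 9.20 to 41.99, 43.9 and 58.0 CPM in YT and measured 16.3 to 19.9 and 3.69 to 17.9 CPM at 0 h and 8 h in TT. Its interaction was 3.02 ± 0.57. Nitab4.5_0002677g0040 (chromosome 11, 41571247 to 41573539) rose from 2.30 to 2.98 CPM at 0 h to 5.05, 14.1 and 21.02 in YT, beside 0.297 to 4.22 CPM at 8 h in TT, with an interaction of 3.56 ± 0.85. Between 0 h and 8 h, both rose in YT alone.

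A pair of genes of the same scaffold on chromosome 15 were both called. Nitab4.5_0003039g0050 (11843131 to 11854279) went from 283.2, 274.9 and 171.3 to 53.0, 32.5 and 71.1 CPM in TT, and measured 78.5, 113.7 and 71.5 before the cold and 48.3, 191.7 and 166.1 at 8 h in YT. Its interaction was 2.84 ± 0.61. Nitab4.5_0003039g0040 (11879436 to 11880167), picked after its values were seen, fell from 11.7 to 18.1 CPM to 5.98 to 8.65 in TT and rose from 6.75 to 7.51 to 18.6 to 22.0 in YT, with an interaction of 2.59 ± 0.46. The first fell in TT alone, and the second moved in opposite directions.

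Among the 18 genes with opposite calls, 11 fell in TT and rose in YT and 7 did the reverse. None of the 7 reached a mean of 5 CPM. Of the 11, the largest interactions at a mean of 5 CPM or more were those of the gene on chromosome 13 above, Nitab4.5_0000227g0020 (chromosome 22, 161271179 to 161274743) and Nitab4.5_0001701g0080 (chromosome 2, 101297948 to 101298348). The gene on chromosome 22 measured 16.7, 23.03 and 41.6 CPM in TT 0h, 5.06, 9.38 and 11.9 in TT 8h, 7.40, 10.4 and 11.4 in YT 0h, and 32.3, 7.95 and 42.2 in YT 8h. Replicate 2 of YT 8h lay within the range of YT 0h for this gene, and the interaction was 3.13 ± 0.58. The gene on chromosome 2 went from 11.1 to 11.7 CPM to 3.78 to 6.84 in TT and from 3.66 to 5.80 to 10.6 to 16.9 in YT, without overlap, with an interaction of 2.77 ± 0.53 (adjusted p = 0.00222). Genes with opposite calls numbered 10 without YT 0h replicate 3, 11 without TT 8h replicate 2 or YT 0h replicate 1, and 25 without YT 8h replicate 1.

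**Figure D4:**
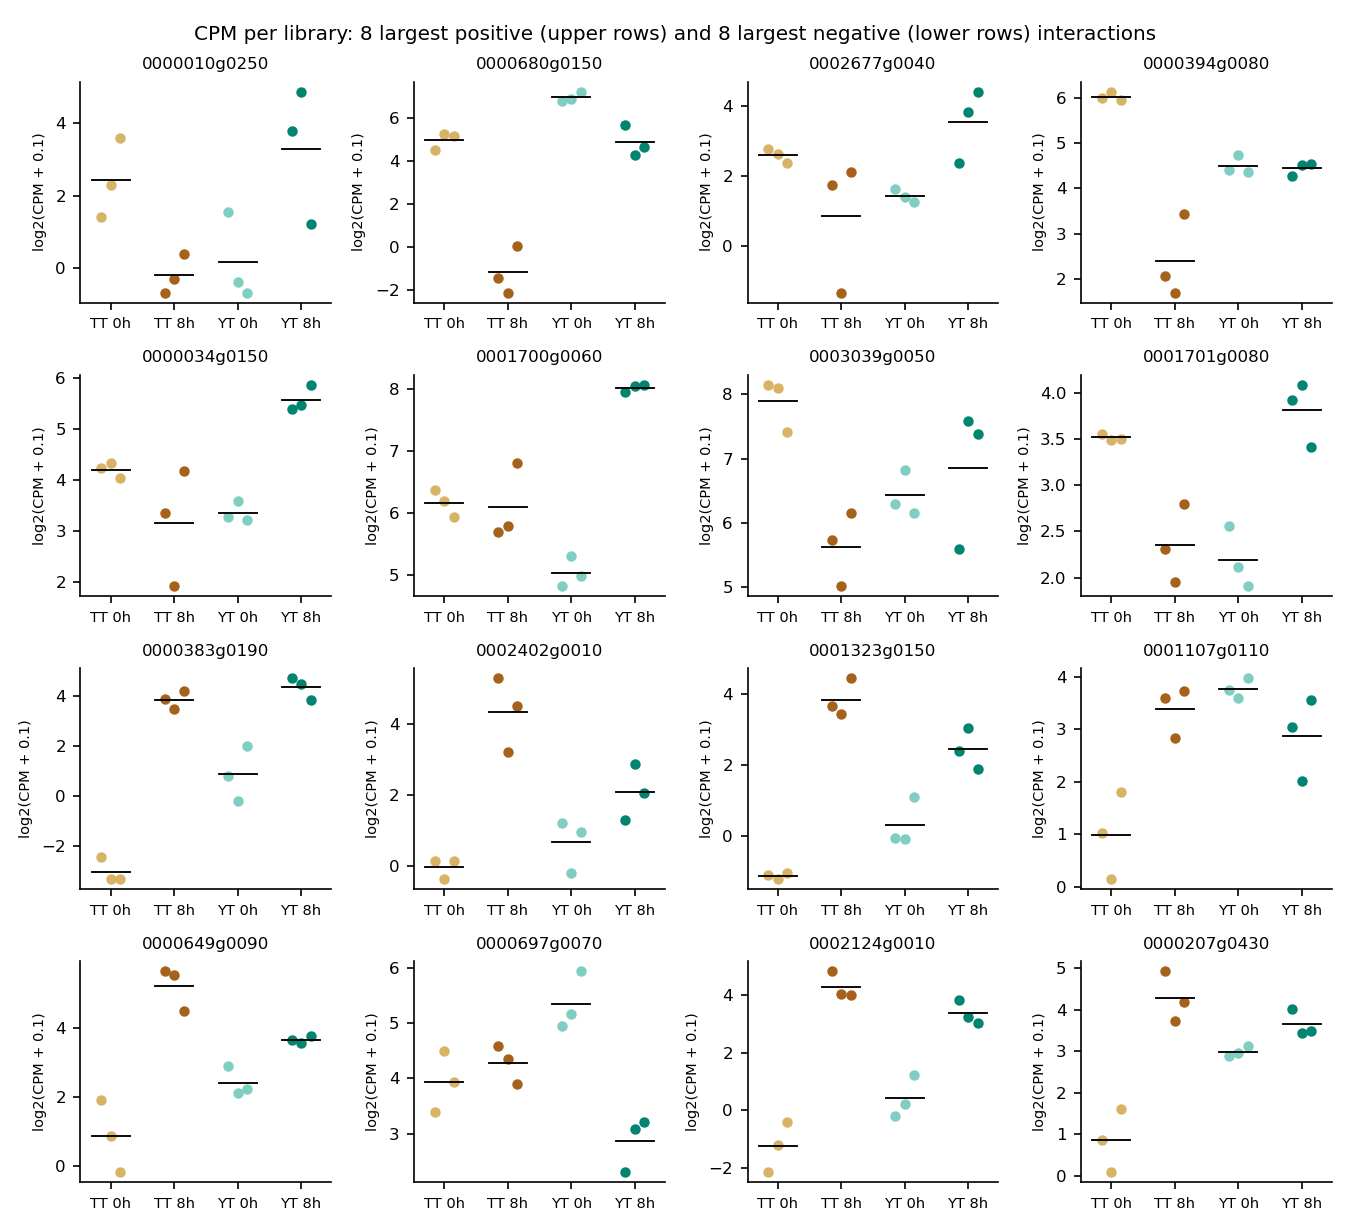
Points are single libraries on a scale of log2(CPM + 0.1), and lines are the means of these values, in the 4 groups of 3 libraries. The upper 8 panels show the genes with the largest positive interactions named by the rule and the lower 8 the largest negative ones, each called in all 12 fits that left out 1 library.

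Among genes averaging 5 CPM or more, the largest negative interaction was that of Nitab4.5_0000383g0190 (chromosome 12, 1863908 to 1866060). It measured 0.083, 0 and 0 CPM in TT 0h, which is at most 3 counts in any library, 14.8, 10.99 and 18.7 in TT 8h, 1.64, 0.775 and 3.89 in YT 0h, and 26.4, 22.3 and 14.4 in YT 8h. Against a floor of 3 counts per library, TT rose at least 121-fold, while YT rose 10-fold from a level at least 17.2-fold above that of TT. The cultivars did not differ by the test at 8 h, and the fitted value of -5.52 ± 1.23 is not a bound.

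A further 4 genes rose in both cultivars, and more in TT. Nitab4.5_0002402g0010 (chromosome 16, 68966639 to 68968276) went from 0.671 to 1.01 CPM to 38.7, 9.17 and 22.4 in TT, and from 0.775 to 2.21 to 2.34, 7.17 and 4.05 in YT, with an interaction of -3.22 ± 0.74. Nitab4.5_0000649g0090 (chromosome 17, 174391406 to 174392846) went from 3.68, 1.72 and 0.775 to 50.3, 47.0 and 22.4 CPM in TT and from 7.36, 4.23 and 4.60 to 12.6, 11.7 and 13.7 in YT, with an interaction of -3.05 ± 0.50. At 8 h the groups did not overlap in either gene, and TT was higher. Nitab4.5_0002124g0010 (chromosome 4, 27187642 to 27189354) went from 0.124 to 0.659 CPM to 15.9 to 28.3 in TT, and from 0.763 to 2.26 to 8.07 to 14.3 in YT. Its interaction was -2.77 ± 0.61. In between, this gene stood higher than at 8 h, averaging 82.2 CPM in TT at 0.5 h and 60.3 in YT at 1 h. The fourth, a kinase on chromosome 19, is described below.

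Different again were Nitab4.5_0001107g0110 and Nitab4.5_0000697g0070. The first (chromosome 22, 162883477 to 162887676) rose in TT from 1.95, 1.01 and 3.37 to 11.9, 7.002 and 13.2 CPM, while YT measured 13.4, 11.97 and 15.6 before the cold and 8.16, 3.93 and 11.6 at 8 h. Its interaction was -3.12 ± 0.56, and a gap at 0 h no longer passed at 8 h. The second (chromosome 14, 5202326 to 5203992) fell in YT, from 30.9, 35.9 and 61.1 to 4.82, 8.41 and 9.18 CPM, and measured 10.4, 22.5 and 15.2 before the cold and 23.8, 20.3 and 14.8 at 8 h in TT. In between, at 2 h, this gene averaged 407.7 CPM in TT and 152.7 in YT. Its interaction was -2.81 ± 0.38 (adjusted p = 8.72e-05). YT was the higher cultivar before the cold and the lower one after it, without overlap at either time.

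Among the protein kinases of the study's lists, every interaction that passed was negative. Kinases outside these lists were not examined. The copies of the study's lists used here hold kinases that changed at all time points in TT (78), in YT (19) or between the cultivars (6), which make 85 different genes, all of them tested, and the list of TT may be incomplete. It chose them on these samples, which include the libraries of the interaction, so their direction is not independent evidence. Of the 85, 77 were called up in TT at 8 h (12.4% of all genes), so all genes are not a like reference for them. Of the 2937 genes called up in TT, 206 not called, 86 up and 7 down in YT had a negative interaction. The interaction was negative in 12 of the 85 kinases (14.1%, against 2.37% of all genes) and positive in none. Its median was -0.67 beside -0.02 over all genes. At an unadjusted p under 0.05, 28 were negative and 1 positive, and DESeq2 called 22 negative and 0 positive. All 12 were in the TT list and rose in TT, by 2.10 to 5.33 on the log2 scale. Of the 12, 8 were higher in YT at 0 h and 3 were higher in TT at 8 h. The count of 12 became 6 without YT 0h replicate 3, 19 without TT 0h replicate 3 and 21 without YT 8h replicate 1.

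Over the 78 kinases of the TT list, YT was higher at 0 h in 17 (3.48% of all genes) and TT in none (2.60%), with a median difference of 0.62, whereas at 8 h YT was higher in none (1.98% of all genes) and TT in 3 (1.92%), with a median of -0.05. The 59 receptor-like kinases of the 3 lists accounted for 10 of the 12 calls and the other 26 kinases for 2. The TT list was chosen by change from 0 h in TT, and 75 of its 78 genes were called up in TT at 8 h. That choice used the TT 0h libraries, so the gap between the cultivars at 0 h is not independent of it. How much of the gap comes from the choice was not tested.

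Among the receptor-like kinases, Nitab4.5_0001323g0150 (chromosome 19, 59298706 to 59301999), of receptor-like cytoplasmic kinase group VI, went from 0.373, 0.336 and 0.388 to 12.5, 10.7 and 21.7 CPM in TT and from 0.877, 0.845 and 2.04 to 5.18, 8.14 and 3.60 in YT. Its interaction was -3.17 ± 0.62 (adjusted p = 0.00287), with YT higher at 0 h, TT higher at 8 h and no overlap at either time. Nitab4.5_0000207g0430 (chromosome 1, 127316052 to 127325883) is a DUF26 kinase, a family of cysteine-rich receptor-like kinases. It went from 1.74, 0.965 and 2.95 to 30.1, 13.2 and 18.1 CPM in TT, whereas YT measured 7.29, 7.64 and 8.56 before the cold and 16.0, 10.8 and 11.1 at 8 h. The interaction was -2.74 ± 0.52. Both kinases kept their call without any 1 library, which the rule that named them required.

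Wall-associated kinases bind pectin in the cell wall. The wall-associated kinase-like gene Nitab4.5_0002372g0020 (chromosome 8, 20107261 to 20116035) was of low abundance at 0 h and 8 h. It measured 0, 0.168 and 0.271 CPM in TT 0h and 0.924, 1.23 and 3.38 in TT 8h. In YT it measured 0.534 to 0.792 at 0 h and 0.496 to 1.16 at 8 h. At 0.5 h this gene averaged 21.3 CPM in TT and 2.88 in YT. Its interaction of -3.51 ± 0.99 held in 7 of the 12 fits without 1 library. The S domain kinase Nitab4.5_0001651g0090 (chromosome 19, 61654281 to 61656797) rose in both, from 1.70, 2.98 and 3.30 to 83.5, 60.8 and 88.3 CPM in TT and from 5.84, 7.22 and 11.3 to 82.2, 59.2 and 56.0 in YT. The interaction was -1.85 ± 0.43, and the groups overlapped at 8 h but not at 0 h.

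Among the other kinases, MAP3K enzymes start mitogen-activated protein kinase cascades. The MAP3K gene Nitab4.5_0000790g0030 (chromosome 20, 65920974 to 65927788) went from 0.952 to 2.06 CPM to 41.3, 15.5 and 33.5 in TT and from 2.78 to 3.45 to 13.97, 20.8 and 13.7 in YT, an interaction of -1.84 ± 0.51 that held in 8 of the 12 fits. Nitab4.5_0005223g0040 (chromosome 7, 67885949 to 67890916), of the GmPK6/AtMRK1 family, reached 15.9 to 27.9 CPM in TT and 6.06 to 12.8 in YT at 8 h, with an interaction of -1.72 ± 0.45 that held in 9. The 6 kinases not described singly had interactions of -2.43 to -1.42. They were a pair of LRK10-like kinases, a second DUF26 kinase, a receptor-like cytoplasmic kinase of group VII, a legume lectin kinase and a putative receptor-like kinase.

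**Figure D5:**
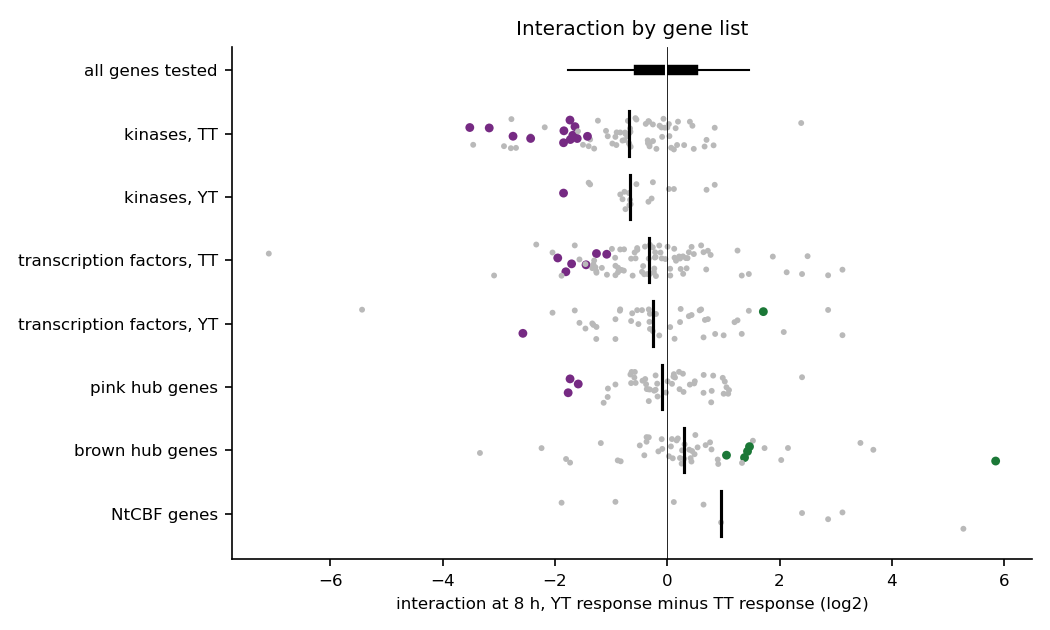
Interaction at 8 h on the log2 scale for each gene of the study's lists, with purple for genes called lower and green for genes called higher in YT, grey for genes not called, and a bar at the list's median. For all 23740 genes the thick line spans the middle 50% and the thin line the middle 90%. The kinases of TT lie to the left, with a median of -0.68 and 12 of 78 called. Of these 78, 75 were called up in TT at 8 h, and most calls among all genes up in TT were negative.

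Of transcription factors, the copies of the study's 3 lists used here, chosen on these samples in the same way, hold 115 different genes, all tested. Of the 115, 81 were called up in TT at 8 h (12.4% of all genes), so all genes are not a like reference for them. Of the 2937 genes called up in TT, 206 not called, 86 up and 7 down in YT had a negative interaction. A positive one was called in 24. The response was lower in YT for 8 (6.96%, against 2.37% of all genes) and higher for 1 (0.87%, against 2.18%), and the median was -0.24. These counts were not tested against the genes called up in TT and are not read as an excess. The count of 8 became 5 without TT 0h replicate 1. By family, 2 of 16 WRKY genes (12.5%, against 2.37%) were lower in response, and 13 of the 16 were called up in TT. Of 32 AP2-EREBP genes, 1 (3.12%, against 2.18%) was higher in response, while none of 14 MYB, 7 GRAS, 8 bHLH, 6 C2H2, 3 NAC and 3 Tify genes was called. At an unadjusted p under 0.05, 8 of those genes passed, and DESeq2 called 0.

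The WRKY gene Nitab4.5_0000048g0080 (chromosome 2, 27885719 to 27888957) fell in YT from 26.7, 20.4 and 45.2 to 7.98, 9.75 and 7.49 CPM, while TT measured 4.22, 5.92 and 7.48 before the cold and 9.77, 7.43 and 11.4 at 8 h. Its interaction was -2.57 ± 0.46 (adjusted p = 0.00141), and YT was higher at 0 h without overlap and reached the level of TT at 8 h. The other WRKY gene, Nitab4.5_0000130g0320 (chromosome 2, 98667341 to 98669823), rose in both, from 9.19, 10.9 and 16.6 to 122.5, 112.9 and 97.7 CPM in TT and from 24.03, 21.2 and 30.4 to 120.7, 66.8 and 64.9 in YT, with an interaction of -1.44 ± 0.35. Both were called in all 12 fits without 1 library.

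PLATZ proteins are plant zinc-binding regulators, and Nitab4.5_0003437g0010 (chromosome 1, 103925036 to 103926567) of this family rose in TT from 15.8, 20.8 and 22.0 to 66.1, 81.7 and 46.7 CPM. In YT it measured 41.8, 40.8 and 71.0 before the cold and 34.8, 48.7 and 48.6 at 8 h, and the interaction was -1.95 ± 0.31. The RWP-RK gene Nitab4.5_0000818g0040 (chromosome 13, 9599578 to 9601769), of a family known for nitrate signalling in Arabidopsis, rose in TT from 7.45 to 9.10 CPM to 20.4 to 28.2 and measured 11.6 to 17.8 and 9.62 to 18.4 in YT, an interaction of -1.70 ± 0.36. Between 0 h and 8 h, both rose in TT alone. In YT they were higher in between: the PLATZ gene averaged 94.2 CPM at 0.5 h and the RWP-RK gene 38.9 at 1 h.

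Of the remaining factors, the homeobox (HB) gene Nitab4.5_0000319g0290 (chromosome 4, 46518591 to 46519548) fell in both cultivars and further in YT, from 27.7, 15.9 and 33.2 to 2.48, 0.370 and 2.73 CPM, beside 13.1, 16.8 and 14.3 to 2.68, 4.97 and 3.63 in TT. Its interaction of -1.80 ± 0.56 held in 4 of 12 fits. Nitab4.5_0001751g0070 (chromosome 21, 81675038 to 81678630), listed under the family DBP, was higher in YT at both times and rose in TT alone, with an interaction of -1.13 ± 0.29. The heat shock factor (HSF) gene Nitab4.5_0005428g0010 (chromosome 14, 109053352 to 109054927) and the Dof zinc finger gene Nitab4.5_0001967g0020 (chromosome 4, 4985057 to 4985850) had interactions of -1.26 ± 0.23 and -1.08 ± 0.32, which held in 12 and 4 of the fits. The 1 factor with a higher response in YT was the AP2-EREBP gene Nitab4.5_0002350g0030 (chromosome 21, 64379890 to 64417374). It went from 11.7, 13.98 and 10.5 to 45.7, 61.8 and 48.4 CPM in YT and measured 20.3, 23.2 and 16.4 before the cold and 28.2, 26.5 and 23.9 at 8 h in TT. In between, at 1 h, this gene averaged 185.8 CPM in TT and 116.2 in YT. The interaction was 1.71 ± 0.43 (adjusted p = 0.016) and was lost in 1 of the 12 fits.

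The study also lists 50 hub genes each of the co-expression modules pink and brown, again from these samples. Of the 50 pink hub genes, 35 were called up in TT at 8 h (12.4% of all genes), so all genes are not a like reference for them. The calls among all genes up in TT are given above for the transcription factors, and the pink count is not read as an excess. In the pink module 3 genes (6%, against 2.37% of all genes) had a lower response in YT and none a higher one, and in the brown module 5 (10%, against 2.18%) had a higher response and none a lower one. The pink genes were Nitab4.5_0001085g0150 (chromosome 19, 127330287 to 127339018), Nitab4.5_0000224g0060 (chromosome 17, 119615599 to 119617017) and Nitab4.5_0002450g0150 (chromosome 4, 18241001 to 18242471). The first encodes a TIR-NBS-LRR protein, the class of intracellular receptors for pathogen products, and went from 4.14, 4.24 and 3.88 to 40.4, 35.7 and 51.2 CPM in TT and from 9.27, 8.03 and 12.2 to 28.3, 28.2 and 33.5 in YT, with an interaction of -1.76 ± 0.46. The second encodes an E1-E2 type ATPase, an ion pump, and overlaps 1 other gene model, so their reads cannot be told apart. It measured 7.92 to 20.7 CPM in TT and 6.76 to 7.90 in YT at 8 h, with an interaction of -1.73 ± 0.50. The third encodes a nudix hydrolase, an enzyme class that cleaves nucleoside diphosphate derivatives, and had an interaction of -1.58 ± 0.49. The calls of these 3 held in 11, 5 and 4 of the 12 fits, and none was left without YT 0h replicate 3. In the module, 1 call was left without TT 0h replicate 1, TT 0h replicate 2, TT 8h replicate 3, YT 0h replicate 2 or YT 8h replicate 2.

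Among the brown genes, Nitab4.5_0001133g0020 (chromosome 17, 100678880 to 100680486) is annotated as RD22, a gene induced by drying in Arabidopsis. It fell in TT from 108.6, 139.7 and 101.6 to 37.8, 25.7 and 37.9 CPM and measured 573.9, 697.5 and 805.4 before the cold and 654.0, 429.1 and 578.0 at 8 h in YT. The interaction was 1.47 ± 0.42 and held in 5 of 12 fits, and YT was higher in every library at both times. The others were a cystatin, an inhibitor of cysteine proteases, the cyclophilin ROC7, which helps proteins fold, and 2 genes of a single scaffold on chromosome 12. Of the 5 calls, 1 was left without TT 0h replicate 2 or YT 0h replicate 3, 2 without TT 0h replicate 1, YT 0h replicate 1 or YT 8h replicate 2, and 3 without TT 8h replicate 1, TT 8h replicate 3 or YT 0h replicate 2.

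That scaffold, Nitab4.5_0001840, spans 112299649 to 112688922 on chromosome 12, and 8 of its 9 tested genes were lower in YT than in TT at 0 h by more than 5 on the log2 scale. The coatomer alpha subunit gene Nitab4.5_0001840g0100 (112683830 to 112688922), whose product coats vesicles of the Golgi, measured 122.0, 133.6 and 105.3 CPM in TT 0h and 69.0, 74.0 and 80.6 in TT 8h, but 0.801, 0.775 and 0.943 in YT 0h and 1.08, 2.03 and 1.12 in YT 8h. The purple acid phosphatase gene annotated as PAP10, Nitab4.5_0001840g0060 (112416024 to 112419379), measured 40.97 to 71.4 and 35.3 to 43.0 CPM in TT and 0 in every library of YT 0h. In YT 8h it measured 0, 0.324 and 0.248. At 0 h it was at least 518-fold higher in TT against a floor of 3 counts per library, and its interaction of 5.85 rests on these few reads in YT. In both genes the interaction compares a level of TT with traces in YT.

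Of 15 gene models that the study names as NtCBF genes, 9 passed the filter on low counts and were tested. In 6 of these at least 1 group at 0 h was at the floor, so they passed through libraries of the later time points, and that the 9 were called up in TT (12.4% of all genes) and in YT (9.94%) is no result about the family. None was called by edgeR in the interaction, where the lowest adjusted p was 0.125, or between the cultivars at 0 h or 8 h, and 1 of the 9 interactions had an unadjusted p under 0.05. DESeq2 called 1, Nitab4.5_0002419g0020 (NtCBF9, NtCBF13 and NtCBF14 map to it), with 4.75 ± 1.68 (SE, adjusted p = 0.0396). At 8 h that gene measured 0.660, 0.212 and 0.675 CPM in TT and 1.49, 2.17 and 1.53 in YT, and with groups at the floor the fitted interactions of -1.88 to 5.27 are no bounds. For NtCBF2 (Nitab4.5_0001083g0010), the levels were 0.497, 0.461 and 0.969 CPM in TT 0h, 11.5, 11.7 and 26.1 in TT 8h, 0.381, 1.76 and 0.151 in YT 0h and 16.5, 52.8 and 23.5 in YT 8h. Its interaction was 0.65 ± 1.24, with an SE larger than the value.

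Apart from the coatomer gene, the qRT-PCR genes and hub transcription factors gave no call. The study used 13 genes in its qRT-PCR assay and names 11 hub transcription factors, and those called in some comparison and outside the NtCBF family had interactions of -0.64 to 1.53. For WRKY21 (Nitab4.5_0000627g0060), YT measured 25.1, 20.7 and 25.2 CPM before the cold and 41.7, 26.9 and 32.9 at 8 h, and TT 2.36, 2.27 and 1.32 before the cold and 3.56, 3.395 and 1.35 at 8 h, with an interaction of 0.03 ± 0.39. The ABI3VP1 gene Nitab4.5_0003259g0030 had an adjusted p of 0.0275 but an interaction of 0.79 ± 0.22, under the limit of 1. For WRKY21, the cultivars stood apart without overlap at both times.

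Of the genes that the study shares with an earlier cold study of tobacco, again chosen on these samples, 353 were tested. In TT at 8 h, 158 of them were called up and 66 down, so all genes are not a like reference. The response was higher in YT for 27 (7.65%, against 2.18% of all genes) and lower for 21 (5.95%, against 2.37%). Without 1 library, these counts were 19 to 33 and 10 to 28, and the second was 10 without YT 0h replicate 3. Besides Nitab4.5_0000394g0080, Nitab4.5_0001700g0060, Nitab4.5_0000227g0020 and Nitab4.5_0002402g0010 above, they include Nitab4.5_0004475g0010 (chromosome 5, 14499065 to 14500513) and Nitab4.5_0001028g0100 (chromosome 19, 58116571 to 58116789). Both rose in each cultivar and further in TT. At 8 h the first measured 11.8, 4.41 and 9.66 CPM in TT and 3.29, 4.39 and 3.60 in YT. In between, it had averaged 19.6 CPM in TT at 0.5 h and 6.40 in YT at 1 h. The second measured 18.5, 24.8 and 17.7 in TT and 5.86, 7.77 and 3.52 in YT at 8 h. Their interactions were -3.24 ± 0.97 and -2.86 ± 0.86. These calls held in 5 and 3 of the 12 fits.

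The called genes lay on all 24 chromosomes. Their share was between 3.21% and 5.67% of the genes tested on 23 of them and 7.5% on chromosome 2, where 52 of 1174 genes had a higher and 36 a lower response in YT. Among the 5 Mb stretches with at least 20 tested genes, the share was highest on chromosome 12 between 20 and 25 Mb, with 6 called genes of 31 (19.4%). Of the 1079 genes, 85 (7.88%) lay next to a tested gene of the same scaffold that was called in the same direction. Over all genes tested, 2.18% were called positive and 2.37% negative. The share to be met without any clustering was not worked out, so the 85 do not show clustering. The longest run of such neighbours, picked after its values were seen, was 3 genes on chromosome 14, Nitab4.5_0000982g0170, Nitab4.5_0000982g0190 and Nitab4.5_0000982g0200 (109803201 to 109846567). The last of them went from 29.8, 26.6 and 18.7 to 926, 348 and 467.3 CPM in TT and from 3.51, 6.23 and 2.94 to 273.1, 494.4 and 286 in YT, so that a gap at 0 h closed by 8 h. The interactions of the 3 genes were 1.98 ± 0.53, 2.09 ± 0.63 and 1.83 ± 0.57, each held in 5 of the 12 fits. Their sequences were not compared, so whether similarity between them affects their counts was not tested.

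Genes with a higher response in YT had fewer exons than those with a lower one. The median gene model had 2 exons and 1074 bases in the former, 5 exons and 1550 bases in the latter, and 4 exons and 1137 bases over all genes tested. Models with 1 exon made up 31.1%, 10.5% and 12.7% of these sets. Among genes that were called in TT at 8 h and not by the interaction, they made up 17.4% of those that rose and 22.5% of those that fell.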

How the data were processed

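Leaf poly(A) RNA of TT and YT was sequenced, and libraries were assigned to groups from the sample labels. Before deposit, the authors cleaned reads with Trim Galore 0.6.4 and aligned them with HISAT2 2.0.5, keeping mapping qualities of 20 or more. The count per gene, deposited without scaling, is the output of featureCounts 1.6.4 for Nitab-v4.5 annotations. TPM from StringTie 1.3.4d, which the authors scaled for length and depth, served as an alternative only.

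In R 4.3.3, counts were filtered with filterByExpr, scaled with TMM factors and fitted with edgeR 4.0.16 (quasi-likelihood, 12 groups, 36 libraries). A gene was called at a log2 value above 1 in size and a two-sided Benjamini-Hochberg adjusted p under 0.05. The study's methods name DESeq2, which was run here as an alternative (1.42.0). An SE is the log2 value divided by the square root of its F statistic. The CPM values are scaled by TMM factors. A group was at the floor when no library had more than 3 counts. The p-values measure the spread between the deposited libraries. The script was tested on simulated counts with seeded interactions. There edgeR called 17 of 58 genes with a 2-fold interaction, which is at the limit, 51 of 73 with a 4-fold and 63 of 69 with an 8-fold one. Of 23344 genes without an interaction it called 1. A gene that was not called is therefore not shown to respond alike in both cultivars.

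Genes were named by a rule with 4 parts: the 8 largest interactions in each direction among genes averaging 5 CPM or more, libraries set apart and calls in all 12 fits without 1 library; the largest oppositely called genes at that level, up to 3 in each direction; the largest called genes of each list, up to 3 in each direction; and the qRT-PCR, hub transcription factor and NtCBF genes called in any comparison. Members, lists and rules were chosen with earlier results of these data known. Kinase and transcription factor families and descriptions came from the study's tables, which name 299 genes.

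The alternatives were DESeq2, its size factors, no filter, a fit of only the 12 libraries, a replicate block, limma 3.58.1 on log2(TPM + 1), and leaving out each library. Leaving out libraries for the class time course was added after the data were seen. GO terms, promoters and proteins were not analysed here.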

Additional observations from a re-analysis of the deposited data

Results flagged for a closer look

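The comparison is itself a test of whether the response differed between the cultivars, and 1079 genes passed it. Among the genes named by the rule, 3 fell in TT and rose in YT, as did Nitab4.5_0003039g0040 (2.59), which was picked after its values were seen. Nitab4.5_0000010g0250 had an interaction of 6.44 on the log2 scale, Nitab4.5_0000227g0020 of 3.13 and Nitab4.5_0001701g0080 of 2.77. In Nitab4.5_0000010g0250 and Nitab4.5_0000227g0020, 1 library of YT 8h lay within or below the range of YT 0h.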

How the results depend on the processing

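None of the 36 named genes that were called turned its direction under any alternative run. The balance of calls did: positive calls outnumbered negative ones in the fit of only the 12 libraries, without TT 0h replicate 1 (277 and 263) and without YT 0h replicate 3 (295 and 267). DESeq2 called 1461 genes by the interaction and kept 97.4% of the 1079 calls, but called 22 kinases in place of 12 and 1 NtCBF gene in place of 0. DESeq2's size factors in edgeR gave 1105 calls and no expression filter 1004. Fitted to only the 12 libraries, the interaction called 551 genes (293 positive and 258 negative). That fit gave 99 genes that rose in TT only, 116 that fell in TT only and 44 that fell in YT only, 90 higher in YT at 0 h only, 67 higher in TT at 0 h only and 53 higher in TT at 8 h only, 4 transcription factors with a negative and 3 brown genes with a positive interaction. With log2(TPM + 1), 164 calls were positive and 1194 negative, and 59.3% of the 1079 were kept. The cause of these shifts was not tested.

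Leaving out 1 library gave 540 to 1610 calls, 257 to 786 positive and 263 to 879 negative, 4489 to 5133 between 0 h and 8 h in TT, 3779 to 4144 in YT, and 971 to 1799 and 728 to 960 between the cultivars at 0 h and 8 h. Genes that rose in TT only numbered 101 to 364, fell in TT only 110 to 297, rose in YT only 56 to 177, fell in YT only 55 to 210 and had opposite calls 10 to 25. The class higher in YT at 0 h only held 68 to 391, in TT at 0 h only 50 to 180, in TT at 8 h only 54 to 146 and in YT at 8 h only 68 to 159. Kinases numbered 6 to 21, transcription factors 5 to 9, brown genes 1 to 5, pink genes 0 to 3 and NtCBF genes 0 to 0. Of the 36 named genes that were called, between 23 (without YT 0h replicate 3) and 35 kept their call.

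With the replicate number as a block, 1052 genes were called and 94.2% of the 1079 kept. The numbers gave no sign of a pairing: deviations of same-numbered libraries correlated between -0.17 and 0.09 in 18 pairs. In 5 of 18 comparisons of a library with the 3 of another group, its own number correlated best. Differently numbered libraries reached -0.19 and 0.19, so this check cannot show that the samples were unpaired.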
